A study of Mus musculus with 2 samples.

Results

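Expression of 7 genes of antigen presentation through major histocompatibility complex (MHC) class II was followed in sorted mouse intestinal stem cells from fed and fasted mice. The genes were taken by name: H2-Aa, H2-Ab1, H2-Eb1, H2-DMa, H2-DMb1, Cd74 and Ciita. All 7 members were found among the 45706 gene IDs of the count tables, and all 7 were among the 12026 genes called measured, for which the mean over both libraries reached 1 CPM (a count scaled to a library of 1000000 counts) and both counts added up to 20 or more.

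The mice carried the Lgr5-EGFP-IRES-creERT2 allele, in which the promoter of the stem cell gene Lgr5 drives a green fluorescent protein together with a tamoxifen-dependent Cre. Cells with high green fluorescence were sorted, and both groups were 4 months old. The fed group had standard chow at will and the fasted group was fasted, each with 1 library. How long the fast lasted, how many mice went into a library and which background strain carried the allele are not in the labels.

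MHC class II molecules are pairs of an alpha and a beta chain that hold peptides from endocytosed proteins at the cell surface for CD4+ T cells. Professional antigen-presenting cells (dendritic cells, macrophages and B cells) make them at high levels, and the intestinal epithelium, its Lgr5+ stem cells included, can make them as well. Transcription depends on CIITA, a coactivator that does not bind DNA itself. It is recruited to factors on a shared promoter module, where the RFX complex binds an element named the X box and NF-Y binds an element named the Y box.

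The promoter module is shown first because class II genes with many reads and class II genes with almost none share its letters. RefSeq windows (GRCm38.p6) from 250 bases before to 50 bases after a gene's start were given for 8 of 11 class II genes, 4 of them members. They were searched on both strands for the letters CNNNNAAC (the core of the X box), followed after 15 to 30 bases by TGATTGG (the Y box). These letters and the spacing were chosen with the class II promoters in view. Members with a window were H2-Aa, H2-Eb1, H2-DMa and H2-DMb1, so the letters were not sought for Cd74, H2-Ab1 and Ciita. Of 32851 windows of all genes 0.356% held the pair, and 7 of the 8 class II genes did. The matches stood in the direction of the gene, with 23 to 26 bases between the elements and the Y box beginning 45 to 102 bases before the start. Capitals mark the X box core and the Y box. The sequences of H2-Aa and H2-Eb1 belong to members with reads, and the last 4 to neighbours with 0 or 1 read. The stretch of the third member with a match, H2-DMb1, lies inside an exon of a GENCODE transcript and is not printed.
H2-Aa: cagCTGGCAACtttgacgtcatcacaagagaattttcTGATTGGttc
H2-Eb1: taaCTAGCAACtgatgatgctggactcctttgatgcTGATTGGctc
H2-DMb2: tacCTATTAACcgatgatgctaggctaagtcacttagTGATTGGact
H2-Ob: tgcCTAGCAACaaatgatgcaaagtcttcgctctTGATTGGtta
H2-Oa: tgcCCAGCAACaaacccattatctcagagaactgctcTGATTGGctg
H2-Eb2: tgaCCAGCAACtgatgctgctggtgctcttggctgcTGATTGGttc

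In the order shown these stretches are chr17:34287864-34287910 on the minus strand, and chr17:34305770-34305815, chr17:34145120-34145166, chr17:34238812-34238855, chr17:34092297-34092343 and chr17:34325537-34325582 on the plus strand. The H2-DMa windows did not hold these letters. The interferon-stimulated response element of IRF factors, in 3.44% of all windows, was matched in none of these genes. The STAT factor letters TTCNNNGAA, in 8.30% of all windows, were matched among these genes only in H2-DMb2. A match describes letters in a window and no binding.

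The labelled cell type was checked against its markers. All 14 stem cell markers and all 7 epithelial markers were measured. Lgr5 had 3381 and 1709 reads in the fed and the fasted library, and the epithelial adhesion gene Epcam had 12968 and 8721. The fed library held 6985316 counts and the fasted library 5020056. Absorptive enterocyte markers were at least 2-fold higher in the fasted library for 10 of 14 genes and goblet cell markers for 3 of 7, against 2.51% of all measured genes. Of the 6 Paneth cell markers 5 had negative log2 ratios and Mmp7 was higher, at 2.07. The median log2 ratio of the 14 stem cell markers was -0.30, with 13 negative and 0 called. Over all measured genes 52.1% were negative and 4.42% called. The part of such differences in cell content in the results below was not tested, and fewer cells of a type cannot be told apart from less RNA per cell.

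Class II transcripts were abundant in both libraries. The 7 genes together took 13156 reads in the fed library, or 0.188% of all its counts (95% exact binomial interval 0.185% to 0.192%), and 7814 reads or 0.156% (0.152% to 0.159%) in the fasted library. Levels of different genes are given as RPKM (CPM per kilobase of merged exons), with the exact 95% Poisson interval of the count. The median measured gene had 8.67 RPKM (fed) and 8.44 RPKM (fasted). Intervals throughout cover counting error only, and 1 library in each group allowed neither a test nor a check against replicates.

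Cd74, which encodes the invariant chain that fills the peptide groove and guides new class II molecules to endosomes, was the most abundant member. It had 7196 reads in the fed library (614 RPKM, 599 to 628) and 4014 in the fasted library (476 RPKM, 462 to 491). That placed it at rank 31 of the 12026 measured genes when the mice were fed and at rank 50 when they were fasted. Its reads made up 54.7% of the member reads in the fed library (53.8% to 55.6%) and 51.4% in the fasted library (50.3% to 52.5%). In the fed library its level was 0.725 times that of Epcam, and in the fasted library 0.602 times.

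The chains of the classical molecules came next. H2-Eb1 encodes the beta chain of the I-E molecule, whose alpha chain gene is a pseudogene in the reference strain. It had 1772 reads in the fed library (130 RPKM, 124 to 137) and 1161 in the fasted library (119 RPKM, 112 to 126). H2-Ab1, the beta chain gene of I-A, had 2003 reads (112 RPKM, 107 to 117) and 1210 reads (93.9 RPKM, 88.6 to 99.3). H2-Aa, its alpha chain partner, had 1305 reads (49.2 RPKM, 46.6 to 51.9) and 788 reads (41.3 RPKM, 38.5 to 44.3). Each of these 3 genes lay above 89.6% or more of the measured genes in either library.

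H2-DMa and H2-DMb1 encode the chains of H2-DM, which exchanges the invariant chain fragment for peptide inside endosomes. Their levels were lower than those of the classical chains. H2-DMb1 had 206 reads in the fed library (17.5 RPKM, 15.2 to 20.1) and 186 in the fasted library (22.0 RPKM, 19.0 to 25.4). H2-DMa had 363 reads (15.1 RPKM, 13.6 to 16.7) and 252 reads (14.6 RPKM, 12.8 to 16.5). The coactivator gene Ciita had the lowest level per length of the 7, with 311 reads in the fed library (4.67 RPKM, 4.16 to 5.22) and 203 in the fasted library (4.24 RPKM, 3.68 to 4.87), below the median measured gene.

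The order was therefore Cd74, H2-Eb1, H2-Ab1, H2-Aa, H2-DMb1, H2-DMa and Ciita in both libraries. In the fed library H2-DMb1 and H2-DMa could not be separated (ratio 1.16, interval 0.976 to 1.38), and in the fasted library the ratio was 1.51 (1.25 to 1.84). H2-Eb1 exceeded H2-Ab1 by 1.17 times (fed, 1.10 to 1.25) and by 1.27 times (fasted, 1.17 to 1.37). That order depended on the exon model. With the length of the longest transcript, the ratio of H2-Eb1 to H2-Ab1 was 0.642 and 0.697, and that of H2-DMb1 to H2-DMa was 0.810 and 1.05. Cd74 stayed first and Ciita last under both lengths.

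**Figure D1:**
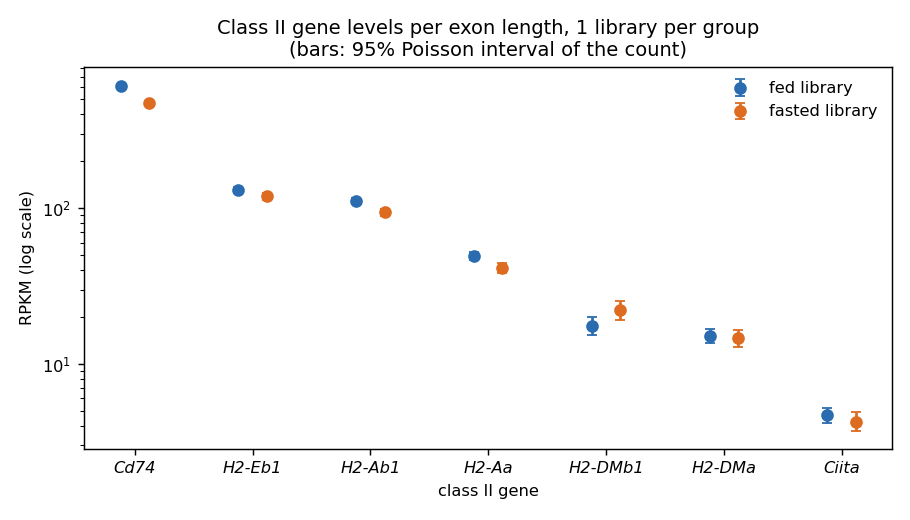
Levels of the 7 class II genes in the fed (blue) and the fasted (orange) library, in RPKM on a log axis, with bars for the exact 95% Poisson interval of the count. Cd74 stands at 614 and 476 RPKM and Ciita at 4.67 and 4.24 RPKM, with the same order in both libraries.

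None of the 7 members differed 2-fold between the libraries. A gene was called higher or lower when the ratio of its scaled counts, fasted over fed, was at least 2-fold and the 95% Clopper-Pearson interval of that ratio excluded 1. Over all measured genes 2.51% were called higher and 1.91% lower, 4.42% in all, so that a list of 7 genes with none called is near that background. At 1.5-fold 0 of 7 members were called as well, against 5.11% of measured genes higher and 5.05% lower, 10.2% in all. The median log2 ratio of the members was -0.12, against -0.018 over all measured genes, and 6 of 7 were negative, against 52.1% of all measured genes. The summed counts of the members gave a log2 ratio of -0.25 (-0.29 to -0.21).

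Smaller differences were resolved for the members with many reads. The interval lay wholly below a ratio of 1 for 4 of 7 members (19.2% of all measured genes) and wholly above it for 1 (16.7%). Many reads narrow the interval, and the 4 members below 1 had at least 788 reads in either library. Cd74 had the lowest ratio, 0.788 (0.758 to 0.819), a log2 ratio of -0.34, and 16.5% of measured genes had a lower value. H2-Aa and H2-Ab1, the partner chains of I-A, had ratios of 0.853 (0.780 to 0.932) and 0.853 (0.794 to 0.917). Their log2 ratios differed by -0.00063 (-0.17 to 0.17), which leaves room for a difference of that size in either direction. H2-Eb1 had a ratio of 0.925 (0.858 to 0.997). For Ciita, at 0.922 (0.768 to 1.10), and H2-DMa, at 0.980 (0.831 to 1.15), the interval included 1.

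H2-DMb1 was the 1 member with a positive log2 ratio, 0.35 (0.06 to 0.64), which is a ratio of 1.27 (1.04 to 1.56). A comparison of members with each other does not depend on the scaling between libraries, because the scaling cancels. A dependence on exon length does not cancel, and the pairs were not recomputed with the length correction described below. Of the 21 pairs of members, the interval for the difference of log2 ratios excluded 0 in 7, and 5 of those 7 involved H2-DMb1. H2-DMb1 exceeded Cd74 by 0.69 (0.40 to 0.99) on the log2 scale. Both genes have nearly the same exon length, 1681 and 1679 bases. It exceeded H2-Ab1 by 0.58 (0.27 to 0.89), H2-Aa by 0.58 (0.26 to 0.90), H2-Eb1 by 0.46 (0.15 to 0.78) and Ciita by 0.47 (0.07 to 0.86). Its difference from its partner chain gene H2-DMa was 0.38 (-0.0011 to 0.76), which just included 0. The other 2 pairs were Cd74 with H2-Eb1, which was 0.23 above it (0.11 to 0.35), and Cd74 with H2-DMa, 0.32 above it (0.07 to 0.56).

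How far H2-DMb1 lies above an unchanged level depended on exon length. Each log2 ratio was corrected by the running median of measured genes of similar length, which left H2-DMb1 at 0.23 (-0.06 to 0.52), so that its interval included 0. The same correction placed Cd74 at -0.46 (-0.52 to -0.41), H2-Ab1 at -0.33 (-0.43 to -0.22) and H2-Eb1 at -0.24 (-0.35 to -0.13), and brought the median of the members to -0.23. Ciita, with 9535 exon bases, came to -0.015 (-0.28 to 0.24), closer to H2-DMb1 than before. Of all 50-base stretches in H2-DMb1 transcripts 22.7% also occur in H2-DMb2, so its reads could be split or lost there. H2-Ab1, H2-Eb1, H2-DMa, Cd74 and Ciita shared no such stretch with any other gene, and H2-Aa shared 0.488% of its own. Exons of Brd2 on the opposite strand cover 10.4% of the H2-DMa exons, and exons of Dexi cover 3.45% of those of Ciita. The strand setting of the counting is not given in the sources used here.

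**Figure D2:**
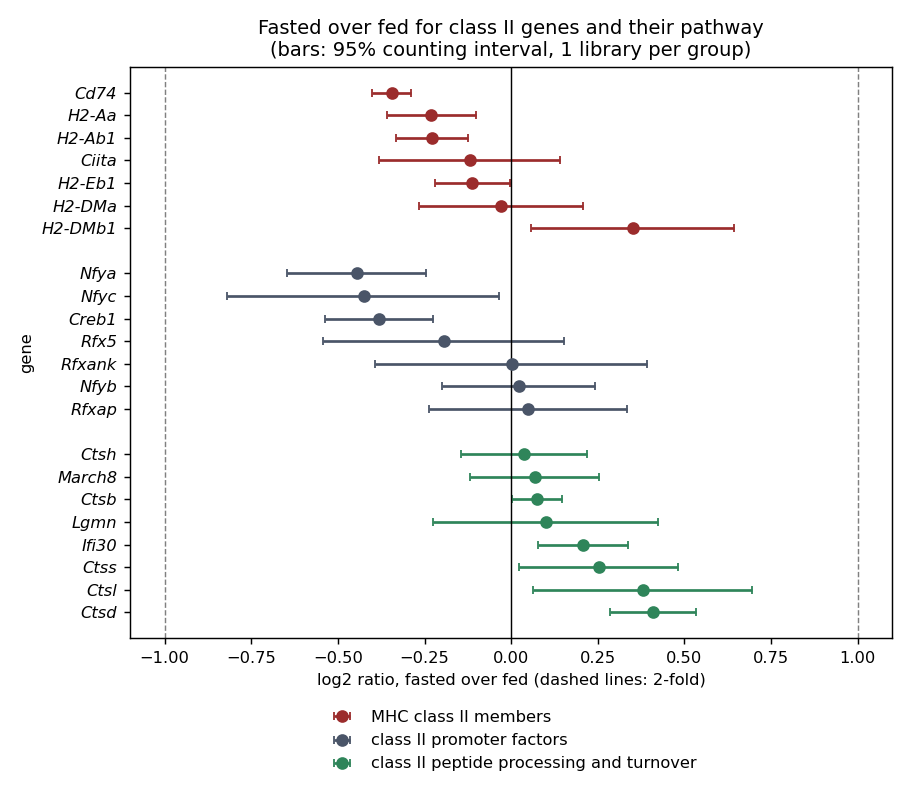
Log2 ratio of fasted over fed, with 95% counting intervals, for the 7 class II genes (red), the measured promoter factors (grey) and the measured processing genes (green), with dashed lines at 2-fold. Every point lies inside 2-fold; Cd74 is at -0.34, H2-DMb1 at 0.35, and all 8 processing genes have positive values.

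The remaining class II chains had almost no reads. H2-Oa and H2-Ob, which encode the chains of the H2-DM inhibitor H2-O, had 0 reads in both libraries, as did H2-Eb2 and the alpha chain pseudogene H2-Ea-ps. H2-DMb2, the neighbour and close paralogue of H2-DMb1, had 0 reads (fed) and 1 read (fasted), against 206 and 186 for H2-DMb1. A count of 0 allows up to 3 counts, or 0.429 CPM for the fed library and 0.598 CPM for the fasted one. All 4 of these chain genes with a promoter window carry the X box and Y box letters shown above.

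Seen along chromosome 17, the class II genes stood among neighbours of varied level. The stretch from the class I gene H2-K1 to the butyrophilin-like gene Btnl1 (GRCm38, 390 kb) holds 34 annotated genes, of which 22 are protein-coding and 17 were measured. None of the 17 was called higher or lower, against 4.42% of all measured genes. Among the members, H2-DMa runs from 34119541 to 34139101, H2-DMb1 from 34153072 to 34160230, H2-Ab1 from 34257689 to 34269419, H2-Aa from 34282744 to 34287823 on the minus strand, and H2-Eb1 from 34305867 to 34316674. Ciita lies on chromosome 16 (10480059 to 10528418) and Cd74 on chromosome 18.

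Between the DM genes and H2-Ab1 lie the genes of the peptide transporter and the immunoproteasome, which serve class I. Psmb9 had 466 and 333 reads (log2 ratio 0.01, -0.19 to 0.22), Tap1 had 438 and 313 (0.01, -0.20 to 0.23), Psmb8 had 506 and 365 (0.03, -0.17 to 0.22), and Tap2 had 137 and 92 (-0.08, -0.47 to 0.32). Each of these intervals included a ratio of 1. Beyond H2-Eb1, Btnl1 had the largest log2 ratio of the measured locus genes, 0.63 (0.40 to 0.86), from 312 and 342 reads, and its neighbour Btnl2 had 0.27 (-0.03 to 0.57). Both encode butyrophilin-like proteins, and Btnl1 is known for its role in intestinal T cell support by the epithelium.

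**Figure D3:**
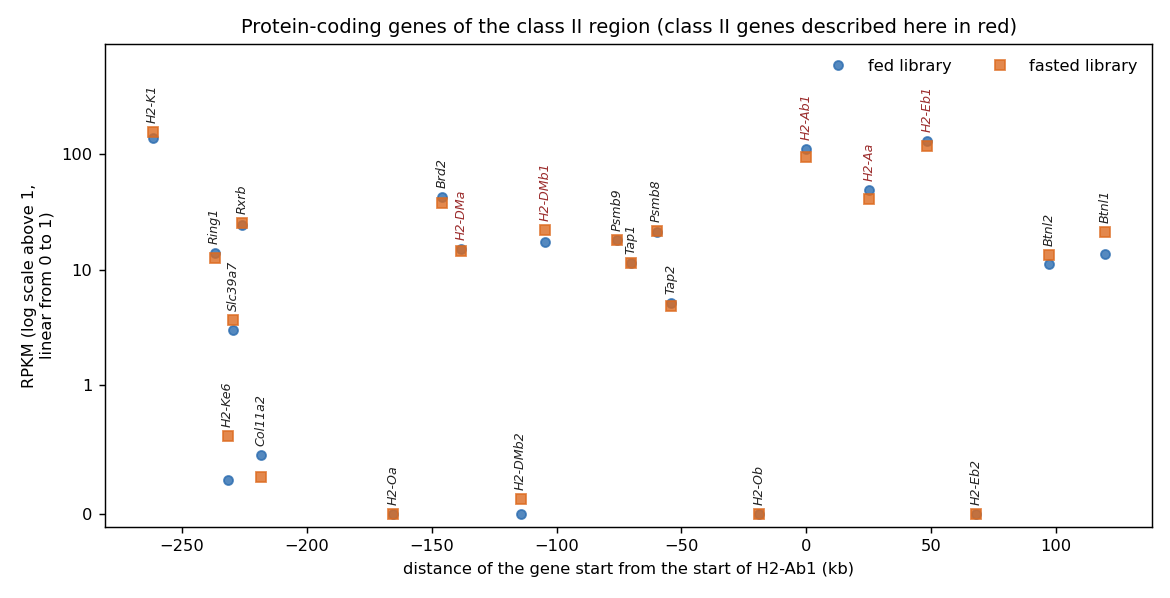
Level of each protein-coding gene from H2-K1 to Btnl1 in the fed (blue circles) and the fasted (orange squares) library, against the distance of the gene start from that of H2-Ab1 in kb. The vertical axis, in RPKM, is logarithmic above 1 and linear below; H2-Ab1, H2-Aa and H2-Eb1 stand between 41.3 and 130 RPKM, while H2-Oa, H2-Ob and H2-Eb2 lie at 0.

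The factors of the promoter module were all measured. Of 7 genes 0 were called (4.42% of all measured genes), 4 had negative log2 ratios (52.1%) and the median was -0.19. The RFX subunit genes were present at 184 and 114 reads for Rfx5 (log2 ratio -0.19, -0.54 to 0.15), 134 and 95 for Rfxank (0.0016, -0.39 to 0.39) and 243 and 178 for Rfxap (0.05, -0.24 to 0.33). Their intervals included a ratio of 1. Among the NF-Y subunit genes, Nfya had -0.45 (-0.65 to -0.25), Nfyc -0.42 (-0.82 to -0.04) and Nfyb 0.02 (-0.20 to 0.24). Creb1, whose product can bind next to the X box, had -0.38 (-0.54 to -0.23).

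Genes that process antigen and turn over class II molecules had small ratios of the opposite sign from most members. Of 9 genes 8 were measured and 0 were called, against 4.42% of all measured genes. A positive log2 ratio was found for 8 of 8, against 47.9% of all measured genes, with a median of 0.15. For 5 of 8 the interval lay above a ratio of 1, against 16.7% of all measured genes. Many reads narrow the interval here too: that of Ctsb, with 3653 and 2726 reads, began at a log2 ratio of 0.0034. Length correction brought the median of the list to 0.098, and ratios of its single genes are not given with that correction. The protease gene Ctss, whose product trims the invariant chain, had 346 and 292 reads and a log2 ratio of 0.25 (0.02 to 0.48). Ctsl, another invariant chain protease gene, had 0.38 (0.06 to 0.69), and Ctsd, an endosomal protease gene, had 0.41 (0.29 to 0.53). Ifi30, which encodes a thiol reductase that unfolds antigens in endosomes, was the most abundant of the list at 156 and 178 RPKM, with 0.21 (0.08 to 0.34). Ctsb had 0.08 (0.0034 to 0.15), Lgmn 0.10 (-0.22 to 0.42), Ctsh 0.04 (-0.14 to 0.22) and March8, a ubiquitin ligase gene, 0.07 (-0.12 to 0.25). March1, the ligase of professional antigen-presenting cells, had 0 and 3 reads. Several of these genes serve lysosomes in general and are not specific to class II.

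Costimulatory ligands, which T cells need beside the peptide, were nearly absent. Of 8 genes 1 was measured, the ICOS ligand gene Icosl, with 68 and 32 reads and a log2 ratio of -0.59 (-1.24 to 0.04). Cd86 had 0 reads in both libraries, Cd80 had 0 and 1, and Cd40 had 1 and 0. Cd274, which encodes the inhibitory ligand PD-L1, had 12 and 4 reads and was not measured.

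Class I presentation was measured for all 17 genes of its list. None was called (4.42% of all measured genes) and 9 were positive (47.9% of all measured genes). The median was 0.013, and total-count scaling turned it to -0.0082. B2m, the light chain gene of class I, stood at 664 and 583 RPKM, close to Cd74 in the fed library, with a log2 ratio of -0.17 (-0.24 to -0.09). The heavy chain genes H2-K1 and H2-D1 had 0.17 (0.09 to 0.25) and 0.21 (0.10 to 0.31). They are close relatives of each other, and how far reads could be exchanged between them was not checked. Calr and Pdia3, chaperone genes of the endoplasmic reticulum, stood at 201 and 192 RPKM in the fed library. The largest positive ratios were those of Nlrc5 and Canx, at 0.58 (-0.0077 to 1.18) and 0.29 (0.22 to 0.36), and the most negative were Tapbpl, at -0.39 (-0.65 to -0.14), and Tapbp, at -0.25 (-0.40 to -0.10). Nlrc5, the class I counterpart of Ciita, had 49 and 52 reads, 0.826 and 1.22 RPKM.

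Interferon gamma is the main inducer of Ciita outside professional antigen-presenting cells. Its own gene Ifng had 0 reads in both libraries. Of the 10 genes of its signalling list 8 were measured and 0 were called, against 4.42% of all measured genes, with a median of 0.045. The receptor genes Ifngr1 and Ifngr2 had 1107 and 977 reads in the fed library and 763 each in the fasted library (log2 ratios -0.04, -0.17 to 0.10, and 0.14, 0.0027 to 0.28). Irf1, a target and cofactor, had 1224 and 777 (-0.16, -0.29 to -0.03). Irf2 had the largest ratio, 0.33 (0.15 to 0.50). Irf8, a transcription factor gene best known from myeloid and B cells, had 929 and 733 reads (18.9 and 20.7 RPKM), with 0.16 (0.01 to 0.30).

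Targets of interferon gamma other than class II mostly had few reads. Of 21 genes 9 were measured, with 0 higher and 2 lower, and 6 negative log2 ratios. Over all measured genes 2.51% were higher, 1.91% lower and 52.1% negative. Nos2, the inducible nitric oxide synthase gene, went from 136 to 38 reads, a log2 ratio of -1.34 (-1.90 to -0.81). The guanylate-binding protein gene Gbp9 went from 33 to 4 reads, at -2.55 (-4.50 to -1.06), and its relative Gbp8 had 16 and 5 reads. The median of -0.41 turned to 0.10 without the filter on low counts. The GTPase genes Irgm1, at 11.5 and 9.46 RPKM, Igtp, at 5.31 and 9.46, and Irgm2, at 5.16 and 3.83, had the highest levels. Their log2 ratios were -0.25 (-0.47 to -0.04), 0.85 (0.40 to 1.31) and -0.41 (-0.84 to 0.02). The chemokine genes Cxcl9 and Cxcl10 had 0 and 2 reads, and 3 and 0 reads.

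Most markers of immune cells had few or no reads, and Cd14 was the most abundant of them. Of 73 markers in 6 lists 5 were measured, 36 had no read in either library, and the median marker stood at 0 RPKM in both. The 73 markers summed to 458 reads in the fed library (65.6 CPM, 59.7 to 71.9) and 238 in the fasted library (47.4 CPM, 41.6 to 53.8), against 13156 and 7814 reads of the 7 class II genes. The 68 markers that were not measured summed to 74 and 47 reads.

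Markers of the professional antigen-presenting cells were looked at singly, whether they were measured or not. Ptprc (CD45), carried by all leukocytes, had 1 read (fed) and 0 reads (fasted). For macrophages, Csf1r and Adgre1 had 0 reads in both. For dendritic cells, Flt3 and Xcr1 had 0 in both and Itgax had 5 and 2. For B cells, Cd79a had 0 in both and Ms4a1 had 3 and 7. The whole lists summed to 84 and 47 reads for leukocytes in general, 8 and 2 for dendritic cells, and 22 and 10 for B and plasma cells. For each of these sums the interval of the ratio, fasted over fed, included 1. No list for dendritic cells, B and plasma cells, or granulocytes and mast cells had a measured gene, and all 9 granulocyte and mast cell markers had 0 reads in both libraries. The T and NK cell list summed to 34 and 25 reads, of which the kinase gene Lck made up 24 and 17. Endothelial markers summed to 4 and 3 reads, and stromal markers to 18 and 18.

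The measured markers were Cd14, Vav1, Itgam, Cd68 and Lck. Cd14, a coreceptor for bacterial lipopolysaccharide, had 208 and 117 reads (17.2 and 13.5 RPKM; log2 ratio -0.33, -0.67 to 0.0014). By merged exons its fed level was above that of Ciita and above that of H2-DMa (15.1 RPKM), the latter with overlapping intervals. With the longest transcript it was below H2-DMa in the fed library (18.1 against 25.9 RPKM). In the fasted library it was below H2-DMa (14.6 RPKM) by merged exons, again with overlapping intervals. Beside H2-DMb1, by merged exons, Cd14 was nearly level in the fed library (17.2 against 17.5 RPKM) and lower in the fasted library (13.5 against 22.0 RPKM). Vav1, an exchange factor gene, had 65 and 25 reads (-0.88, -1.61 to -0.20), and the integrin gene Itgam had 62 and 26 (-0.76, -1.48 to -0.07). Cd68, a lysosomal membrane gene, had 25 and 6 reads (-1.56, -3.14 to -0.24). It was the 1 of 5 called lower, against 1.91% of all measured genes. Lck had 0.00033 (-0.99 to 0.96). The macrophage list, to which Cd14, Itgam and Cd68 belong, summed to 310 and 154 reads, a log2 ratio of -0.51 (-0.80 to -0.23), which has the same sign as that of Cd74. Its part in the class II ratios was not tested. Of its 14 genes 6 had no read in either library, among them Csf1r, Adgre1, C1qb and C1qc.

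**Figure D4:**
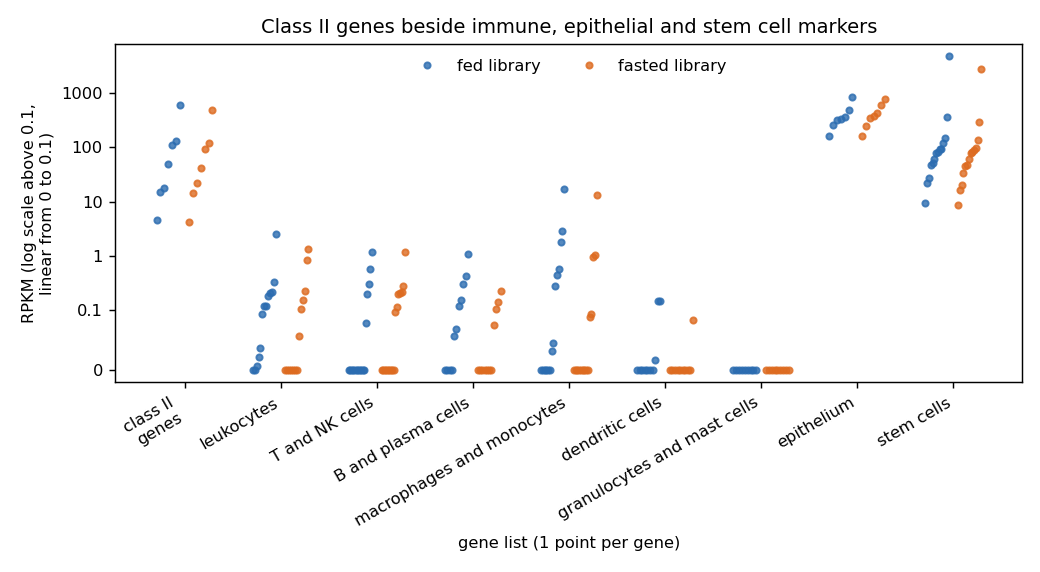
Level in RPKM of each gene of the class II set, the 6 immune lists, and the epithelial and stem cell lists in the fed (blue) and the fasted (orange) library, with 1 point per gene and an axis that is logarithmic above 0.1 and linear below. The class II genes lie between 4.24 and 614 RPKM, most immune markers lie at 0, and the highest immune marker, Cd14, lies at 17.2 and 13.5 RPKM.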

How the data were processed

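RNA sequencing counts of 2 libraries, 1 fed and 1 fasted, were used. The deposited counts are whole reads per Ensembl gene without normalisation, as the values show. FastQC, STAR, HTSeq and DESeq and the builds GRCm38 and mm10 are named, without roles, per the submitters' processing notes. A deposited table of normalised signal equals these counts divided by 1.19 (fed) and 0.842 (fasted). That division gave 99.9978% of its values to within 0.0051. These divisors equal the scaling factors used here, so ratios from it had to give the same 302 higher and 230 lower genes as the counts.

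IDs were matched to GENCODE M21 (45143 of 45706), which supplied coordinates and merged exon lengths. Counts were scaled by median-of-ratios factors (1.19 and 0.842) in Python 3.11.15 with scipy 1.17.1, and intervals are exact Clopper-Pearson (ratios), conditional odds ratio (pairs) or Poisson (levels), all at 95%. The ratio procedure was tested on simulated data with Poisson counting error only, which cannot show how variation between animals affects the calls. TMM and upper-quartile factors came from edgeR 4.0.16. Other alternatives were total counts, the deposited table, length correction over 500 neighbouring genes, no filter, 5 CPM, 1.5-fold, summed counts and the longest transcript.

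All members, all measured class II pathway genes and measured immune markers are named. In other lists the 3 highest levels and up to 3 largest ratios in each direction were taken, and further genes (among them Ifng, Irf8, Cxcl9, Cxcl10 and Gbp8) were chosen after their values were seen. Some genes of the lists are not reported here. Members and lists were chosen with earlier results of these data known.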

Additional observations from a re-analysis of the deposited data

How the results depend on the processing

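No member was called under any of the alternatives run, 1.5-fold included, and all 7 kept the sign of their log2 ratio under 5 other scalings. Of 35 recomputed member ratios 33 stayed inside the original interval, the exceptions being Cd74 and H2-Eb1 after length correction. The deposited table had the same factors as the main scaling, so its ratios could not differ. TMM, total-count and upper-quartile factors moved every log2 ratio alike, by 0.0017, -0.021 and 0.024. Only the length correction moved members by different amounts. The median of the members ranged from -0.23 (length correction) to -0.094 (upper-quartile factors). With upper-quartile factors 3 members in place of 4 had an interval below a ratio of 1. A minimum of 5 CPM gave 176 higher and 111 lower genes overall and 1 lower interferon gamma target, and calls at 1.5-fold gave 614 and 607 genes and 1 higher target. Both follow from a stricter and a looser rule. Without the filter the median of the interferon gamma targets was 0.10, and that of the signalling list was -0.039. With the longest transcript, 4 members (fed) and 2 members (fasted) changed rank, and the summed immune marker level was 35.2 RPKM in place of 31.8 in the fed library. For the other class II chains no median could be given. Depth limits the comparison of Ciita and the DM genes, with 186 to 363 reads each. No paired analysis was possible because there is 1 library per group.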
